A study of Mus musculus with 12 samples.

Results

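The GIMAP family (GTPases of immunity-associated proteins) was followed in resting splenic B cells that lacked or retained RUNX1, before and 3 h after activation. Its members were taken by symbol, as the 8 genes Gimap1, Gimap3, Gimap4, Gimap5, Gimap6, Gimap7, Gimap8 and Gimap9 among the 37991 Ensembl identifiers of the count table, and all 8 were found and had enough counts to be tested. GIMAP proteins are small GTPases related to the septins and dynamins, and they are made mainly in lymphocytes, where several of them sit on the membranes of the endoplasmic reticulum, Golgi or lysosomes and bear on the survival of the cells. Mice without Gimap5 lose peripheral T cells, and mice without Gimap1 lose mature T and B cells, while GIMAP6 binds an LC3-like autophagy protein and GIMAP4 has been tied to the pace of T cell death.

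The 12 libraries came from mice of 8 weeks, in 4 groups of 3 replicates. All mice, controls included, carried the CD23-iCre transgene, which is driven by the Cd23 promoter and is first expressed at the transitional B cell stage. The controls, called Cre-only, had this transgene alone, and the Runx1 c-k/o mice also carried Runx1 alleles whose exon 4 is flanked by loxP sites. B cells were purified by negative selection and were taken either without activation (resting, 0 h) or after 3 h with anti-IgM, which engages the B cell receptor, together with the cytokine IL-4 (3 h). The study calls the replicates biological, and whether each was a separate mouse is not stated in the sources used here, so the p-values describe the spread between these samples.

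All 8 genes lie in 1 cluster of 119.3 kb on mouse chromosome 6 (mm9, 48597233 to 48716518), in the order Gimap8, Gimap9, Gimap4, Gimap6, Gimap1, Gimap7, Gimap5 and Gimap3 by first base. Gimap6 and Gimap3 are on the minus strand and the other 6 on the plus strand. Gimap1 has 5 annotated transcripts, the longest of which begin just before Gimap7 and run into Gimap5, so 8.9% of its exonic bases are shared on the same strand with those neighbours. Gimap3 and Gimap5 are close copies of each other, and 22.2% of the 50-base stretches in the Gimap3 transcript occur unchanged in transcripts of Gimap5. For Gimap8, Gimap9, Gimap4 and Gimap6 no such stretch was found in the protein-coding transcripts of another gene. How reads that fit more than 1 gene were counted is not given in the sources used here, so the division of counts among Gimap1, Gimap7 and Gimap5 and between Gimap3 and Gimap5 is uncertain.

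**Figure D1:**
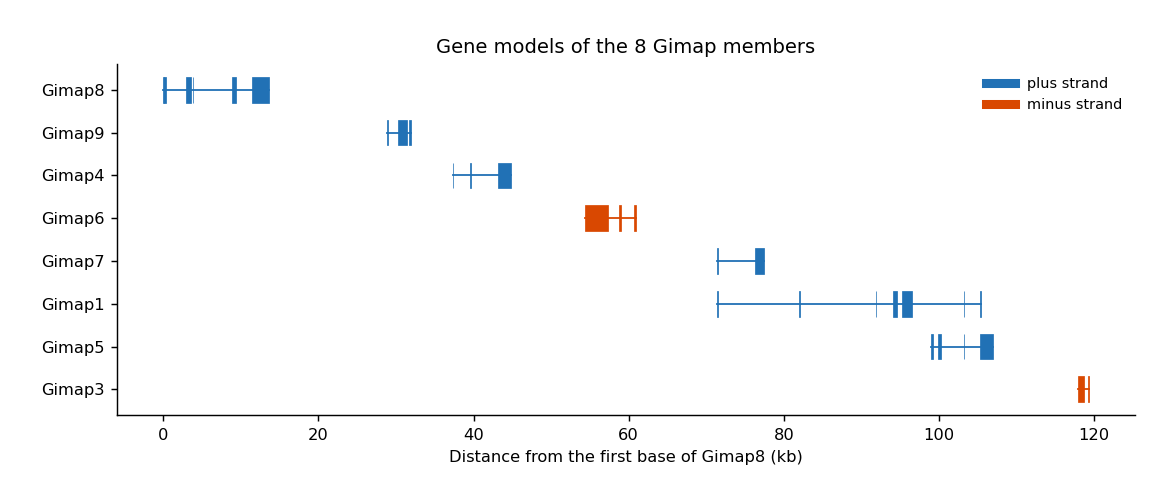
Exons (boxes) and introns (lines) of the 8 Gimap genes in the mm9 annotation, by distance in kb from the first base of Gimap8, with 1 row per gene and the strand in colour. The cluster spans 119.3 kb, and the Gimap1 model spans that of Gimap7 and overlaps that of Gimap5.

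The sequence just upstream of 5 members is given because their counts show the changes described below: Gimap4 and Gimap9 were higher after activation, Gimap7 and Gimap6 lower, and Gimap4 and Gimap3 differed between the genotypes at 3 h. Each run reads 5′ to 3′ on the gene's own strand and is RefSeq sequence of the 250 bases before the start of transcription, placed on mm9 by exact match and ended before the first annotated exonic base. Capitals mark the 6 letters TGTGGT or TGCGGT, the core recognised by RUNX proteins, or their reverse complements, found on either strand.
Gimap4: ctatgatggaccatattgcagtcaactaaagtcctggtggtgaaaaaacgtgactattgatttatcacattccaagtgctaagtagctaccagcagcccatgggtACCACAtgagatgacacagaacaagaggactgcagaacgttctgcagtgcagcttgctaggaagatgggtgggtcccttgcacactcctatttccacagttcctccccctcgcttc
Gimap9: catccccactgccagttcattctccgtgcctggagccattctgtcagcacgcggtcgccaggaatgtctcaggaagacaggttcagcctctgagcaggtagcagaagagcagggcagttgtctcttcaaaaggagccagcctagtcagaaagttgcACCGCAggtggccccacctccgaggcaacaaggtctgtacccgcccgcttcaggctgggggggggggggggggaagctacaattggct
Gimap7: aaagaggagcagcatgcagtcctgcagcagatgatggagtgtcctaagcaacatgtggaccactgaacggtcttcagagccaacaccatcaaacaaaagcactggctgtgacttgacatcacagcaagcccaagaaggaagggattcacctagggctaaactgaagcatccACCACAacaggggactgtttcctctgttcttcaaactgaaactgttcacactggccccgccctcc
Gimap6: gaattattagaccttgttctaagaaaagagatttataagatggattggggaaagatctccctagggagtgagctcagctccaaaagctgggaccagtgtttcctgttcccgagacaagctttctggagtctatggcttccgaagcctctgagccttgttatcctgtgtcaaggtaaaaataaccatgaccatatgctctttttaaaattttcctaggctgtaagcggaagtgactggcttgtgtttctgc
Gimap3: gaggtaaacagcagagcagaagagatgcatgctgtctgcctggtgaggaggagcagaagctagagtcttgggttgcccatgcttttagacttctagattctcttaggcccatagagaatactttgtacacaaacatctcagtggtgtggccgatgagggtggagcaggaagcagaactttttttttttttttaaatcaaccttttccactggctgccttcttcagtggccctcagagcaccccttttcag
In mm9 these runs lie at chr6:48634327-48634547 for Gimap4, chr6:48625884-48626127 for Gimap9 and chr6:48668370-48668605 for Gimap7, all on the plus strand. Those on the minus strand lie at chr6:48658244-48658493 for Gimap6 and chr6:48720851-48721100 for Gimap3. The RefSeq start of Gimap3 is 4332 bases upstream of the gene model in the mm9 annotation, which holds 906 exonic bases. Over the full 250 bases, 1 of the motifs was found in 4 of the 8 members (Gimap4, Gimap9, Gimap7 and Gimap1), and in none of the windows of Gimap8, Gimap6, Gimap5 and Gimap3. The RefSeq start of Gimap1 lies 20440 bases inside its gene model, and all 250 bases of its window are exonic in the gene Gm3345. Among all 27025 genes with a RefSeq start, 20.9% held a motif in such a window. A match of 6 letters is a description of the sequence and was not tested for binding.

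The deposited counts summed to 14442251 to 23641552 per library. A floor of 3 counts corresponds to 0.127 to 0.208 CPM, the counts scaled to a common library size, and the smallest count of any member was 41, for Gimap7 in an activated library. Levels are given below as normalized CPM, the CPM after scaling of the library sizes by the trimmed mean of M-values (TMM). Tests used edgeR's quasi-likelihood fit over all 12 libraries, and a gene is called where its p-value, adjusted by Benjamini-Hochberg over 13538 genes, is under 0.05. SEs and 95% intervals are from that fit, on the log2 scale. In a χ2 comparison of counts, replicates of a group differed by 3.06 to 5.99 per degree of freedom, except that Runx1 c-k/o resting replicate 2 differed from its 2 partners by 30.7 and 37.6, Runx1 c-k/o 3 h replicate 1 from its partners by 60.9 and 85.1, and Runx1 c-k/o 3 h replicates 2 and 3 from each other by 14. The main fit, the levels and the figures use all 12 libraries. Because 2 libraries stand apart, some values are also given without them, and these are named as such below.

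Runx1 itself was no check of the deletion, since its counts cover all exons and not exon 4 alone. For resting Runx1 c-k/o B cells the study reports loss of the RUNX1 protein by western blot. The normalized CPM of Runx1 at rest was 83.6, 81.8 and 86.7 in Cre-only cells against 101, 95.7 and 103 in Runx1 c-k/o cells, and the difference at rest was not called (log2 fold change 0.25, SE 0.135, adjusted p = 0.548). After 3 h it was 38.5, 37.0 and 34.9 in Cre-only cells against 47.3, 70.6 and 74.5 in Runx1 c-k/o cells, which was called higher (log2 fold change 0.80, adjusted p = 0.00769). The B cell markers Ms4a1, Cd79a and Cd79b each had 4936 counts or more in every library. The T cell markers Cd3d, Cd3e, Cd3g, Thy1 and Themis had 0 to 17 counts. The 19 T cell markers together summed at rest to 46.0 to 55.4 CPM in Cre-only cells against 45.2 to 56.6 CPM in the Runx1 c-k/o. At 3 h they summed to 77.8 to 89.7 against 82.1 to 105 CPM, so the sums of the genotypes overlapped at both times. Most of the sum was Lck, with means of 34.9 and 65.2 CPM in resting and 3 h Cre-only cells. Among these markers Zap70 was called higher in Runx1 c-k/o cells at rest (log2 fold change 1.73, adjusted p = 0.0114). Its means there were 4.59 CPM against 1.39 CPM in Cre-only cells. Endothelial markers summed to 268 to 302 CPM at rest and 9.67 to 26.7 CPM at 3 h, and this sum is nearly all Pecam1 (mean of 275 CPM in resting Cre-only cells), with Cdh5 at 2.17, Egfl7 at 0.145 and Emcn at 0 there. At 3 h in Cre-only cells Pecam1 and Cdh5 were called lower (8.62 and 0.0781 CPM) and Egfl7 higher (1.10 CPM). Myeloid markers summed to 256 to 504 and 30.2 to 66.7 CPM at rest and 3 h, NK cell markers to 11.4 to 17.2 and 2.61 to 7.25 CPM, and platelet markers to 11.4 to 14.3 and 3.27 to 4.59 CPM. The B cell markers also summed to less at 3 h, 5672 to 6376 CPM after 10273 to 11255 CPM at rest, and the means of the plasma cell and red cell sums were lower in both genotypes. The sums from endothelial to red cell markers moved in the direction of Gimap6 and Gimap7, while the T cell sums rose. Single T cell markers went both ways. With activation Lck, Cd5 and Cd6 were called higher in both genotypes, and Cd4 and Zap70 lower. Mean levels in Cre-only cells went from 2.84 to 0.216 CPM for Cd4 and from 1.39 to 0.129 CPM for Zap70. Dendritic cell and marginal zone B cell markers had higher mean sums at 3 h in Cre-only cells (31.9 to 35.7 and 542 to 716 CPM). Single markers went both ways there. Of the dendritic cell markers, Zbtb46 was called higher (means of 1.45 and 17.8 CPM) and Flt3, Xcr1 and Clec9a lower. Of the marginal zone markers, S1pr3, Cd9 and Myof were called higher and Cd1d1 and Mzb1 lower. In Runx1 c-k/o cells the mean sums of both sets were lower at 3 h (33.1 to 30.3 and 603 to 586 CPM). The part of any of these sums in the changes of Gimap6 and Gimap7 was not tested.

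In resting Cre-only B cells Gimap6, the autophagy-linked member, was the most abundant. Its normalized CPM was 779, 868 and 918, and it made up 55.5% of the counts of the whole family (mean of 3 libraries). Gimap8, which is unusual in holding several GTPase domains, had 218, 235 and 240 CPM, and Gimap4 had 159, 191 and 174. Between genes, levels can be set side by side only per length. On normalized CPM per kb of exon, Gimap6 stood at 244 ± 20.2 (SD, n = 3), Gimap3 at 111 ± 4.43, Gimap4 at 94.9 ± 8.71, Gimap8 at 62.4 ± 3.17, Gimap1 at 32.8 ± 1.63, Gimap5 at 23.1 ± 1.62, Gimap7 at 20.3 ± 0.754 and Gimap9 at 18.0 ± 2.38. Neighbours in this order did not overlap in their ranges, except Gimap7 and Gimap9. The value for Gimap3 rests on its short gene model of 906 bases. In resting Runx1 c-k/o cells Gimap6 led again with 283 ± 21.7 CPM per kb, and Gimap3 and Gimap4 overlapped in second place, at 128 ± 3.94 and 127 ± 12.2.

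After 3 h of anti-IgM and IL-4 the make-up of the family changed. The lead by CPM per kb passed to Gimap4, at 136 ± 10.5 in Cre-only cells against 221 ± 38.7 in Runx1 c-k/o cells, and Gimap7 was the lowest in both, at 2.39 ± 0.356 and 2.54 ± 0.450. Among the resting Runx1 c-k/o libraries it had already been the lowest, at 16.6. Gimap6 took 55.5% ± 1.15 of the family's normalized CPM in resting and 32.1% ± 0.520 in activated Cre-only cells, with 57.9% ± 2.08 and 31.7% ± 2.11 for the Runx1 c-k/o. The ratio of Gimap6 to Gimap4 fell from 4.55 to 5.28 in the 3 resting Cre-only libraries to 1.21 to 1.31 in the activated ones, and the Runx1 c-k/o libraries went from 3.60 to 4.71 at rest to 0.961 to 1.17. Summed over the 8 genes, Cre-only libraries held 1420, 1585 and 1617 CPM at rest and 947, 1035 and 985 at 3 h. Runx1 c-k/o libraries held 1802, 1647 and 1674 at rest and 1499, 1202 and 1272 at 3 h. Both genotypes had a lower GIMAP sum at 3 h, with no overlap between the times, and the Runx1 c-k/o libraries lay above the Cre-only libraries at each time. In such bulk libraries fewer cells of a type and less RNA per cell cannot be told apart.

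**Figure D2:**
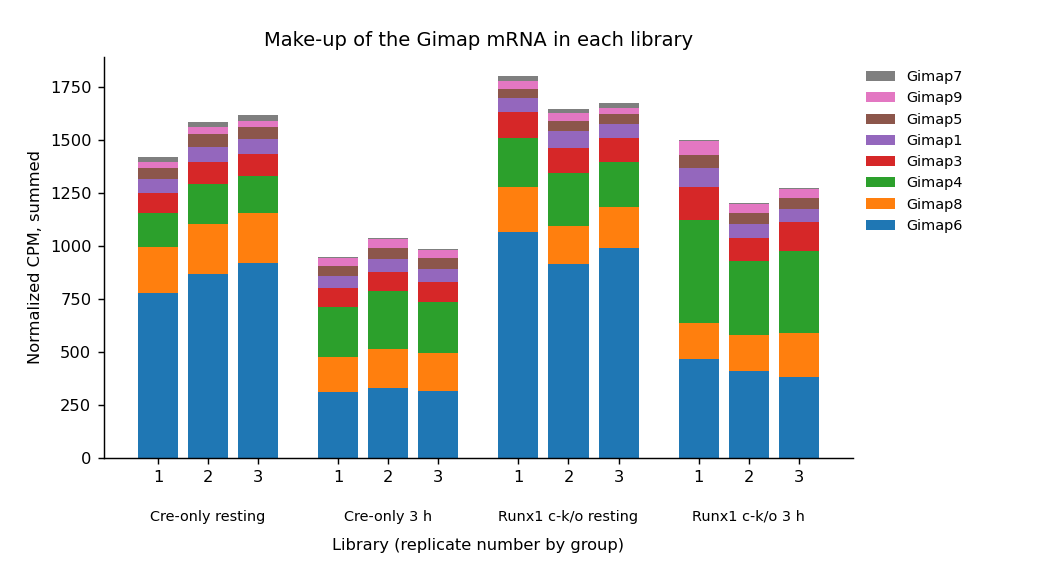
Stacked normalized CPM of the 8 Gimap genes in each of the 12 libraries, grouped by genotype and time. Gimap6 holds 54.8 to 59.2% of the bar at rest and 29.9 to 34.0% at 3 h, and the bars of Runx1 c-k/o cells end above those of Cre-only cells at each time.

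Which members moved with activation in control cells was asked by comparing 3 h with rest in Cre-only cells. With edgeR, 5 of the 8 members were called, 2 higher (Gimap4 and Gimap9) and 3 lower (Gimap7, Gimap6 and Gimap8), where 75.0% of all genes tested were called (38.6% higher and 36.4% lower), so the share of called members was not above that of the genome. The median log2 fold change was -0.18 over the members and 0.03 over all genes. Activation and the time spent in culture cannot be told apart here.

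Gimap7, whose protein can stimulate the GTPase activity of another GIMAP protein, changed the most. Its normalized CPM was 26.6, 24.7 and 26.1 in resting and 3.54, 2.68 and 2.87 in activated Cre-only libraries. In Runx1 c-k/o cells it was 23.9, 18.2 and 21.0 at rest and 3.86, 2.76 and 3.06 at 3 h. The times were far apart in both genotypes, with log2 fold changes of -3.07 (SE 0.154, adjusted p = 1.66e-08) for Cre-only and -2.70 (SE 0.157, adjusted p = 4.33e-08) for Runx1 c-k/o cells, that is 8.41-fold and 6.52-fold lower. These are among the lower tail of the genome, at percentiles 5.58 and 6.62 of the log2 fold changes of all genes tested.

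Gimap6, the partner of an LC3-like autophagy protein, fell from 779, 868 and 918 CPM to 309, 329 and 313 CPM in Cre-only cells. Runx1 c-k/o cells went from 1066, 915 and 988 CPM to 466, 408 and 380 CPM. No activated library reached the lowest resting one in either genotype, and the log2 fold changes were -1.43 (SE 0.107, adjusted p = 1.84e-07) and -1.24 (SE 0.107, adjusted p = 6.46e-07). Gimap6 and Gimap7 were called lower in both genotypes under every alternative tried, and without the 2 Runx1 c-k/o libraries that stand apart their values in Runx1 c-k/o cells were -1.41 and -2.97.

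Gimap4, tied to lymphocyte death, went the other way. It had 159, 191 and 174 CPM at rest and 235, 272 and 243 CPM at 3 h in Cre-only cells. The Runx1 c-k/o libraries went from 235, 254 and 210 to 485, 347 and 386 CPM. All activated libraries lay above all resting ones of the same genotype, with log2 fold changes of 0.52 (SE 0.130, adjusted p = 0.00308) and 0.80 (SE 0.130, adjusted p = 0.000124), the latter being 0.70 without the 2 libraries that stand apart. With 1 factor of unwanted variation (RUVs, a correction estimated from the spread between replicates) in DESeq2 the Cre-only value became -0.02, and the call in Runx1 c-k/o cells was also lost (0.28, adjusted p = 0.0759). With that factor in edgeR the call was lost in Cre-only cells (0.09, adjusted p = 0.547).

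Gimap9, a little-studied member, rose from 25.2, 32.6 and 31.1 to 37.0, 42.3 and 37.5 CPM in Cre-only cells. The Runx1 c-k/o libraries went from 34.6, 38.1 and 30.9 to 64.6, 42.7 and 42.9 CPM. The times did not overlap in either genotype. The log2 fold change was 0.39 (SE 0.163, adjusted p = 0.0437) for Cre-only and 0.54 (SE 0.162, adjusted p = 0.00987) for Runx1 c-k/o cells, and the latter was 0.36 without the 2 libraries that stand apart and 0.30 without Runx1 c-k/o 3 h replicate 1 alone (adjusted p = 0.0284). The Cre-only call was close to the threshold, since 12 of 15 alternatives ended it. Leaving out Cre-only resting replicate 1 or 3 gave adjusted p = 0.166 and 0.0639, and leaving out Cre-only 3 h replicate 1, 2 or 3 gave 0.0596, 0.125 and 0.0628. With 1 RUVs factor the sign turned in both genotypes, to -0.18 and -0.09 in edgeR and to -0.29 and -0.15 in DESeq2. Over the 12 libraries Gimap9 followed Gimap4 (Pearson r = 0.943 of log2 normalized CPM), as Gimap7 followed Gimap6 (r = 0.959), both described without a test since the points share libraries and the change with activation.

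Gimap8 was called lower in Cre-only cells, from 218, 235 and 240 to 166, 184 and 181 CPM (log2 fold change -0.38, SE 0.101, adjusted p = 0.00420). For Runx1 c-k/o cells the resting values of 211, 178 and 198 CPM and the activated values of 172, 173 and 210 overlapped (log2 fold change -0.08, 95% interval -0.30 to 0.14, adjusted p = 0.479). The Cre-only call was lost with 1 RUVs factor (-0.20, adjusted p = 0.203 in edgeR), and the Runx1 c-k/o value turned sign, to 0.11. That the genotypes respond differently is not shown by these calls, and the test of the difference follows below.

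The remaining members, Gimap1, Gimap5 and Gimap3, were not called in Cre-only cells, and these include the genes best known for keeping lymphocytes alive. A fit of the Cre-only libraries alone did call Gimap1, Gimap5 and Gimap3, where 84.0% of all genes were called. Gimap1, needed for mature B cells, had 65.9, 72.7 and 70.7 CPM at rest and 57.0, 60.3 and 61.0 at 3 h in Cre-only cells, with no overlap but no call (log2 fold change -0.23, 95% interval -0.50 to 0.03, adjusted p = 0.103). It was called lower in 6 of 15 alternatives, with -0.68 (adjusted p = 4.3e-05) and -0.79 (adjusted p = 8.1e-09) with 1 RUVs factor in edgeR and DESeq2. In Runx1 c-k/o cells its values of 66.6, 79.4 and 69.1 and of 88.6, 67.2 and 62.5 overlapped (0.02, 95% interval -0.24 to 0.29, with the sign turned in 10 of 16 alternatives). Gimap5, whose protein lies on lysosomes, had 50.8, 58.4 and 53.9 and then 48.5, 52.1 and 53.5 CPM in Cre-only cells, which overlapped (log2 fold change -0.08, adjusted p = 0.445, and -0.34 and -0.45 with 1 RUVs factor in edgeR and DESeq2, both called). In Runx1 c-k/o cells Gimap5 went from 45.6, 47.8 and 45.3 to 62.2, 50.9 and 51.8 CPM and was called higher (0.25, SE 0.0957, adjusted p = 0.0319). That call was lost in 14 of 17 alternatives, among them the leaving out of Runx1 c-k/o resting replicate 1 or 3 (adjusted p = 0.0808 and 0.0826) or of 3 h replicate 1 (0.14, adjusted p = 0.119), and with 1 RUVs factor the sign turned (-0.03 in edgeR). Gimap3, the close copy of Gimap5, had 96.4, 103 and 104 CPM at rest and 90.0, 93.4 and 92.8 at 3 h in Cre-only cells (log2 fold change -0.13, adjusted p = 0.281), which became -0.44 and -0.55 with 1 RUVs factor, both called. No call was made in Runx1 c-k/o cells (0.21, adjusted p = 0.101), but the value was 0.34 and called without Runx1 c-k/o 3 h replicate 2 (adjusted p = 0.00413) and 0.07 without replicate 1 (adjusted p = 0.472). In Runx1 c-k/o cells 5 of 8 members were called in all, 3 higher and 2 lower, where 74.3% of all genes were called (37.7% higher and 36.6% lower).

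**Figure D3:**
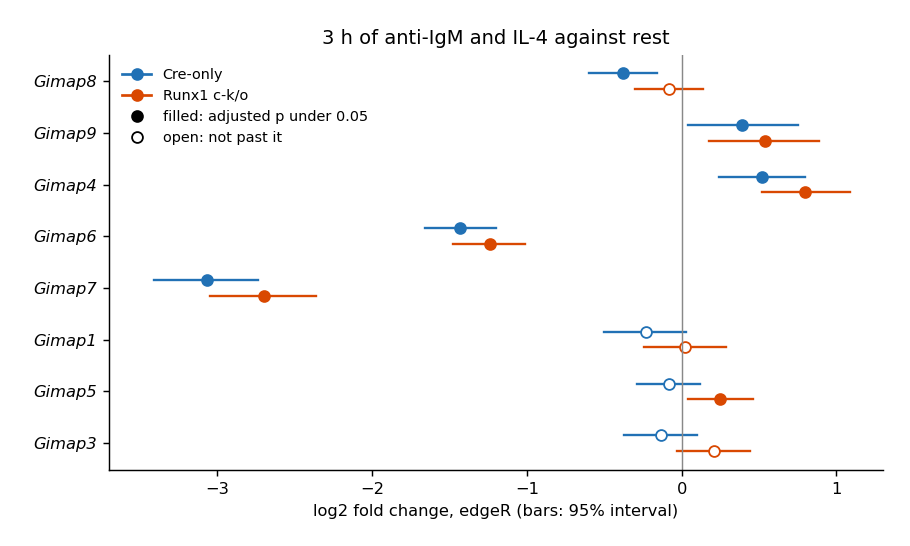
Log2 fold change of 3 h against rest for each Gimap gene (points, with 95% intervals), in either genotype, with filled points past adjusted p of 0.05. Gimap7 (-3.07 and -2.70) and Gimap6 (-1.43 and -1.24) lie far to the left in both genotypes, and Gimap4 and Gimap9 lie to the right, although with 1 RUVs factor in DESeq2 Gimap9 turned to -0.29 and -0.15 and Gimap4 in Cre-only cells to -0.02.

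The effect of losing RUNX1 was asked first in resting cells. With edgeR 0 of 8 members were called, where 1.49% of all genes tested were, and DESeq2 also called 0, where it called 2.79% of all genes. At an unadjusted p under 0.05, edgeR had 4 members, as it had 1496 of the 13538 genes. The median log2 fold change of the members was 0.12, against 0.03 for all genes. Values of the genotypes did not overlap for 5 members, higher in Runx1 c-k/o cells for Gimap4 and Gimap3 and lower for Gimap8, Gimap7 and Gimap5, where 23.7% of all genes did not overlap.

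The member with the smallest p at rest was Gimap4, with 159, 191 and 174 CPM in Cre-only against 235, 254 and 210 CPM in Runx1 c-k/o cells (log2 fold change 0.42, SE 0.130, adjusted p = 0.203). It was called with 1 RUVs factor (0.35, adjusted p = 0.0202 in edgeR) and without the 2 libraries that stand apart (0.35, adjusted p = 0.0286), settings under which 3.87% and 4.35% of all genes were called. Gimap5 was at 50.8, 58.4 and 53.9 CPM in Cre-only against 45.6, 47.8 and 45.3 CPM in Runx1 c-k/o cells (-0.23, SE 0.0956, adjusted p = 0.378), and it was called lower with 1 RUVs factor (-0.27, adjusted p = 0.0344). Gimap6 had a log2 fold change of 0.21 (95% interval -0.02 to 0.44), called without the 2 libraries that stand apart (0.27, adjusted p = 0.0389). For Gimap8 and Gimap7 the values were -0.24 (95% interval -0.46 to -0.02, adjusted p = 0.409) and -0.29 (adjusted p = 0.446). Gimap3 was at 0.20 (adjusted p = 0.554), Gimap9 at 0.22 (adjusted p = 0.656) and Gimap1 at 0.04 (95% interval -0.23 to 0.30), whose sign turned in 5 of 15 alternatives.

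In activated cells the Runx1 c-k/o libraries held more Gimap4 and Gimap3 mRNA. These were the 2 members called of 8, both higher, where 2.77% of all genes were called and 1.47% were called higher. All 8 log2 fold changes were above 0, from 0.07 to 0.70, with a median of 0.33 against 0.01 over all genes. That sign turned for Gimap8 (-0.04 without Runx1 c-k/o 3 h replicate 3) and for Gimap7 (-0.06 without Runx1 c-k/o 3 h replicate 1), both of which were near 0. For 5 members the genotypes did not overlap, each higher in Runx1 c-k/o cells, where 9.50% of all genes lay apart in that direction.

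Gimap4 had 235, 272 and 243 CPM in Cre-only against 485, 347 and 386 CPM in Runx1 c-k/o cells at 3 h. The lowest Runx1 c-k/o library was above the highest Cre-only library, and the replicate that stands apart was the highest. The log2 fold change was 0.70 (SE 0.130, 95% interval 0.42 to 0.98, adjusted p = 0.0134), and 0.57 without that replicate (adjusted p = 0.00556). The call was lost without Cre-only 3 h replicate 1 (0.66, adjusted p = 0.0795) or 3 (0.68, adjusted p = 0.0656), and in a fit of the 6 activated libraries alone (0.72, adjusted p = 0.0581). In each of the 15 alternatives the value lay between 0.57 and 0.80.

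Gimap3, whose protein has been placed on the endoplasmic reticulum, had 90.0, 93.4 and 92.8 CPM in Cre-only against 156, 109 and 136 CPM in Runx1 c-k/o cells. The genotypes did not overlap, and the replicate that stands apart was again the highest. The log2 fold change was 0.54 (SE 0.109, 95% interval 0.30 to 0.78, adjusted p = 0.0205), and 0.43 without that replicate (adjusted p = 0.0120). It was no longer called without Cre-only 3 h replicate 1, 2 or 3 (adjusted p = 0.0984, 0.0809 and 0.0743) or in a fit of the 6 activated libraries alone (0.55, adjusted p = 0.114). Because reads of Gimap3 and Gimap5 can be confused, their counts were also summed, and the sum differed by 0.40 (adjusted p = 0.0672).

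Gimap6 lay apart as well, at 309, 329 and 313 CPM against 466, 408 and 380 CPM, but did not reach the threshold (log2 fold change 0.40, SE 0.107, adjusted p = 0.0769). It was called with DESeq2 (0.44, adjusted p = 0.00461), with 1 RUVs factor in edgeR (0.37, adjusted p = 0.0153), without Runx1 c-k/o 3 h replicate 3 (0.46, adjusted p = 0.0404) and without the 2 libraries that stand apart (0.34, adjusted p = 0.00642). In these settings 5.24%, 7.65%, 4.47% and 6.65% of all genes were called. Gimap9 and Gimap1 also had no overlap, with log2 fold changes of 0.36 (95% interval 0.01 to 0.72, adjusted p = 0.293) and 0.29 (95% interval 0.03 to 0.56, adjusted p = 0.266). Without Runx1 c-k/o 3 h replicate 1, their values were 0.16 and 0.15. Gimap5 (0.10, 95% interval -0.11 to 0.31), Gimap7 (0.08, 95% interval -0.31 to 0.46) and Gimap8 (0.07, 95% interval -0.16 to 0.29) overlapped between the genotypes.

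**Figure D4:**
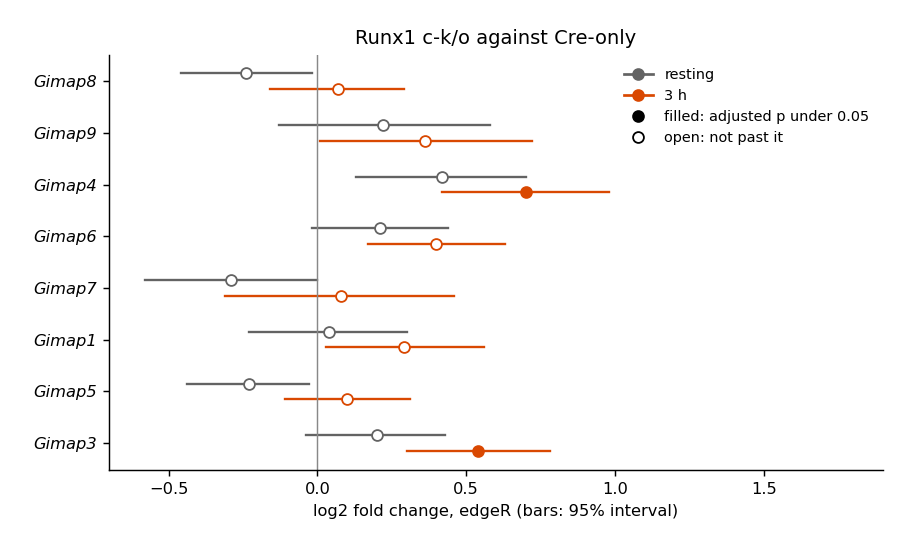
Log2 fold change between the genotypes (Runx1 c-k/o minus Cre-only) for each Gimap gene (points, with 95% intervals) at rest and at 3 h, with filled points past adjusted p of 0.05. At 3 h all points lie at or right of 0.07 and those of Gimap4 (0.70) and Gimap3 (0.54) are filled, while at rest no point is filled. Without single Runx1 c-k/o 3 h libraries, Gimap8 and Gimap7 turned to -0.04 and -0.06.

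Whether the genotype effect itself changed between rest and 3 h was tested as an interaction. EdgeR called 0 of 8 members, where 0.0813% of all genes were called, and DESeq2 also called 0, where it called 0.694% of all genes. At an unadjusted p under 0.05 there were 2, Gimap5 (0.33, SE 0.135, adjusted p = 0.867) and Gimap3 (0.34, SE 0.154, adjusted p = 0.968). All 8 differences of log2 fold changes were above 0, from 0.14 to 0.37, with a median of 0.29 against -0.04 over all genes, and the sign of Gimap9 turned (-0.04) without Runx1 c-k/o 3 h replicate 1. The calls of Gimap4 and Gimap3 at 3 h and their absence at rest therefore do not show that the effect differed between the times. The comparisons at rest, at 3 h and of the times share libraries, so their values for a member are not independent of each other.

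**Figure D5:**
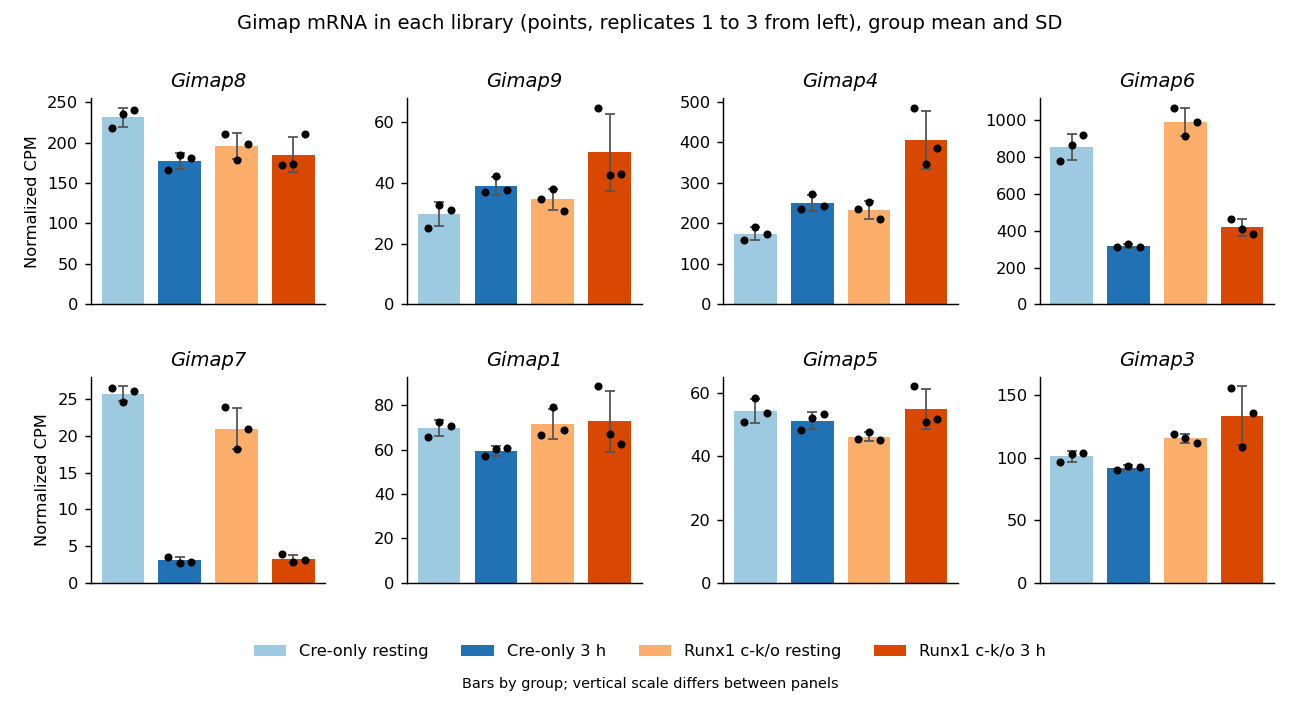
Normalized CPM of each Gimap gene in the 12 libraries (points, replicates 1 to 3 from left in each group), with bars at the group mean and error bars of 1 SD (n = 3). Gimap7 and Gimap6 drop at 3 h in both genotypes, and the Runx1 c-k/o libraries at 3 h lie above the Cre-only ones for Gimap4 (347 to 485 against 235 to 272) and Gimap3 (109 to 156 against 90.0 to 93.4).

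Genes around the cluster were set beside the members. Within 150 kb of either end the count table held 16 annotated genes that are no member, of which 8 could be tested. EdgeR called 0 of these 8 between the genotypes at rest (1 at an unadjusted p under 0.05) and 0 at 3 h (0 at an unadjusted p under 0.05), and DESeq2 called 0 at both times. With activation all 8 were called in Cre-only cells, 3 higher and 5 lower, where 75.0% of all genes were called. Repin1, a zinc finger gene, rose from 5.84 to 35.9 mean normalized CPM in Cre-only cells (log2 fold change 2.62, adjusted p = 8.88e-08), and Lrrc61 fell from 28.6 to 13.6 (-1.07, adjusted p = 1.29e-06). Tmem176b and Tmem176a fell as well, from 3.50 to 1.05 and from 1.83 to 0.524. Gm3345, which lies antisense to Gimap1 and shares 103 exonic bases with it, had 6.17 and 4.39 CPM at rest and 3 h in Cre-only cells. Whether the counting used strand is not given in the sources used here, so its reads and those of Gimap1 may not be fully separated.

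Proteins that GIMAPs have been tied to, in a list of 20 genes of the Bcl-2 family, the LC3 and GABARAP autophagy genes, the FOXO factors and others, were set beside the members too. Between the genotypes edgeR called 0 at rest (4 at an unadjusted p under 0.05) and 0 at 3 h (3 at an unadjusted p under 0.05), while DESeq2 called 0 and 1. With activation 18 of the 20 were called in Cre-only cells, 7 higher and 11 lower, against 38.6% and 36.4% of all genes. The FOXO factors, which hold lymphocytes at rest, were among the lower ones, with Foxo1 going from 382 to 91.9 mean CPM (log2 fold change -2.06, adjusted p = 4.16e-08), Foxo3 from 97.0 to 32.9 and Foxo4 from 52.0 to 16.5. Bcl2, which keeps cells from apoptosis, fell from 108 to 10.5 mean CPM (-3.36, SE 0.225, adjusted p = 1.15e-07). Bcl2l1 of the same family went the other way, from 5.78 to 108 mean CPM (4.22, SE 0.364, adjusted p = 9.11e-07). Other GTPases of immunity, the interferon-inducible GBP, IRG and Mx genes, were listed as 19 genes with 18 tested. At 3 h 5 of these were called higher in Runx1 c-k/o cells, where 1.47% of all genes were, and 0 lower, with a median log2 fold change of 0.55, beside 2 of 8 and 0.33 for the GIMAP genes. The 4 with the smallest p were Mx2 (log2 fold change 1.49), Irgm1 (0.75), Gbp6 (1.36) and Igtp (0.59), and at rest edgeR called 0 of 18 (1 at an unadjusted p under 0.05, with 0 by DESeq2). Of 26 genes typical of naive and resting lymphocytes, 20 were called lower and 3 higher on activation of Cre-only cells, where 36.4% of all genes were lower and 38.6% higher. Btg2, an inhibitor of proliferation, fell from 489 to 63.2 mean CPM, Klf6 from 1274 to 88.3, Klf13 from 272 to 64.8 and S1pr1, which guides lymphocytes out of tissues, from 465 to 107. The 3 called higher were Il7r (1.74 to 98.6 mean CPM), Satb1 (193 to 1151) and Slfn2 (60.6 to 310). Between the genotypes at 3 h, 1 of the 26 was called, where 2.77% of all genes were (9 at an unadjusted p under 0.05, with 4 called by DESeq2). That gene was Slfn1 (1.99, adjusted p = 0.00769), whose level was low, at 0.896 mean CPM in Cre-only against 3.67 in Runx1 c-k/o cells.

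The genes whose pattern over the 12 libraries was most like the family's were found by the Pearson correlation of log2 normalized CPM with the mean standardised level of the 8 members. That mean profile ranged from -0.858 in Cre-only 3 h replicate 1 to 1.06 in Runx1 c-k/o 3 h replicate 1, the latter being a library that stands apart. The members themselves followed it unequally, with r = 0.896 for Gimap1, 0.830 for Gimap3, 0.511 for Gimap5 and between 0.295 and 0.469 for the others. Each member is part of that mean, which raises its own r. The mean also joins members that ran opposite to each other, such as Gimap4 and Gimap7 (r = -0.722), so it is not a pattern shared by all 8. The 5 most like it were Deaf1 (r = 0.942), March5 (0.916), Rap1b (0.906), 1300014I06Rik (0.887) and Rhof (0.880). The 5 least like it were Cog1 (-0.932), Fam53b (-0.902), Tom1l2 (-0.899), 1110018G07Rik (-0.898) and Fchsd1 (-0.886). These values were picked as extremes among all genes tested and describe these libraries.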

How the data were processed

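Per the labels and the study's methods, B cells purified from spleens were lysed with ERCC spike-in RNA, and stranded poly(A) libraries were made from it. The submitters' processing notes name CASAVA 1.8.4, TopHat2 2.0.11, featureCounts and genome mm9. The authors deposited the resulting read counts per Ensembl gene, without normalization, and the table held 0 spike-in entries. Symbols and positions were taken from the mm9 GENCODE annotation. Sequences are from RefSeq (GRCm38.p6 entries of 300 bases, of which the first 250 were matched to mm9), found for all 8 members.

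The counts were fitted with edgeR 4.0.16 (R 4.3.3): filterByExpr with a count minimum of 10, TMM, a robust quasi-likelihood fit over 4 groups, and Benjamini-Hochberg adjustment over 13538 genes. The fit was also run on simulated counts with known changes in the resting comparison of genotypes, and its outcome is not given here. Alternatives were DESeq2 1.42.0, its size factors, other filters, 1 RUVs factor, blocks, fits of fewer samples and summed Gimap3 and Gimap5 counts. The members and the gene lists were chosen with earlier results of these data known. Genes named besides the members are Runx1, cell type markers, genes within 150 kb and the 5 most and least like the mean profile. From each list up to 4 genes past the threshold with the smallest adjusted p are named, and Bcl2l1 because it went against Bcl2. Il7r, Satb1 and Slfn2 are named because they went against most of their list. The labels give replicate numbers and do not state a pairing. Same-numbered Cre-only libraries deviated together weakly (r = 0.275, 0.176 and 0.144 between rest and 3 h). In Runx1 c-k/o cells those of replicates 1 and 2 did not (-0.254 and -0.264), and those of replicate 3 did (0.254). Libraries of other numbers there did so too, with r = 0.477 for resting 2 and 3 h 1, 0.309 for resting 3 and 3 h 2 and 0.268 for resting 1 and 3 h 3. Same-numbered libraries of different genotypes did not deviate together.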

Additional observations from a re-analysis of the deposited data

How the results depend on the processing

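The numbers of members called moved as follows. At rest, 2 members differed between the genotypes with 1 RUVs factor, in edgeR and in DESeq2, where 3.87% and 4.48% of all genes were called. The number was also 2 when both Runx1 c-k/o libraries that stand apart were left out, where 4.35% of all genes were called. That setting was chosen after seeing the data. Leaving out single libraries gave 0 called at rest, 0 to 3 at 3 h, 4 to 5 for activation of Cre-only cells, 4 to 6 for activation of Runx1 c-k/o cells and 0 for the interaction. A fit of only the groups compared called 0 members between the genotypes at 3 h, where 1.29% of all genes were called. Such a fit called 8 with activation of Cre-only cells, where 84.0% of all genes were called. With 1 RUVs factor in DESeq2, 3 members were called with activation of Runx1 c-k/o cells, where 59.2% of all genes were called. The causes were not tested.

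Over 40 values of single members, 574 of 666 alternatives gave the same direction and side of the threshold, 34 lost a call, 26 gained one and 32 turned the sign. At rest, Gimap1 between the genotypes turned to -0.04 with 1 RUVs factor in either tool, without Runx1 c-k/o resting replicate 2 and without both libraries that stand apart, and to -0.0010 without Cre-only resting replicate 1, in a range of -0.04 to 0.09 without single libraries. Gimap5 counted together with Gimap3 turned to 0.06. At 3 h, Gimap8 turned to -0.04 without Runx1 c-k/o replicate 3 (range without single libraries -0.04 to 0.14), and Gimap7 to -0.06 without replicate 1 or both libraries that stand apart and to -0.0022 without Cre-only replicate 2 (range -0.06 to 0.22). With activation of Cre-only cells and 1 RUVs factor, Gimap9 turned to -0.18 in edgeR and -0.29 in DESeq2 and Gimap4 to -0.02 in DESeq2. In Runx1 c-k/o cells that factor turned Gimap8 to 0.11 and 0.05, Gimap9 to -0.09 and -0.15, Gimap1 to -0.45 and -0.52, Gimap5 to -0.03 and -0.09 and Gimap3 to -0.12 and -0.19. Gimap1 there also turned to -0.01 with DESeq2, with its size factors and with no filter, to -0.08 with at least 10 counts in every sample, to -0.09 without both libraries that stand apart, and to -0.03, -0.0012 and -0.15 without resting replicate 1, resting replicate 3 or 3 h replicate 1 (range -0.15 to 0.13). In the interaction Gimap9 turned to -0.04 without Runx1 c-k/o 3 h replicate 1 (range -0.04 to 0.25).

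With a replicate block, 0 members were called at rest, 2 at 3 h, 4 with activation in each genotype and 0 in the interaction. The shares of all genes called were 1.03% at rest, 2.03% at 3 h, 74.1% and 73.1% with activation and 0.0886% in the interaction. With the block within each genotype 5 and 4 members were called with activation, where 71.9% and 70.9% of all genes were called. In Cre-only cells, whose same-numbered libraries deviated together, the block within genotype changed no call. Another scaling (DESeq2 size factors) moved the median of all genes by at most -0.08. The number of all genes called between the genotypes moved from 202 at rest and 375 at 3 h to 378 and 709 with DESeq2, to 524 and 1036 with 1 RUVs factor in edgeR, and to 598 and 914 without both libraries that stand apart. It was 158 at 3 h in a fit of those groups alone, and 81 to 140 at rest and 180 to 617 at 3 h without single libraries. Gimap7 had 41 to 82 counts per library at 3 h, the fewest of the members.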
